A study of Mus musculus with 9 samples.

Results

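The 10 genes Jun, Junb, Jund, Fos, Fosb, Fosl2, Batf, Atf3, Egr1 and Nr4a1 are members of the AP-1 transcription factor family or immediate early genes. They were chosen by name from 20665 autosomal protein-coding genes, with earlier results of these data known. Each was measured over its span and 5000 bp on each side. Whole-genome bisulfite sequencing, which reads methylated and unmethylated cytosines apart, was done on B cells purified from mouse spleen by magnetic depletion of other cells. The mice were homozygous (HOM), heterozygous (HET) or wild type (WT) for an Ile5482Asn mutation of Kmt2d, an A>T change at position 98835228 of chromosome 15. The cells were not treated, and the labels do not state the age, sex or strain of the mice. The labels describe 2 B cell samples per genotype, but the table holds 1 pair of columns per genotype, here called a library, and only the names of the HOM and HET columns carry the term ENU, a chemical mutagen.

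AP-1 is a dimer of basic leucine zipper proteins of the Jun, Fos, BATF and ATF families, which binds DNA at short palindromic motifs. Immediate early genes are transcribed within minutes of a stimulus from proteins already present in the cell, and in B cells antigen receptor signalling induces Fos, Egr1 and Nr4a1 in this way. Kmt2d encodes a methyltransferase that places H3K4 monomethylation at enhancers. In mammals DNA methylation sits mostly on CpG dinucleotides, and CpG-rich promoters of active or inducible genes are usually free of it.

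Every difference below is between 1 library and another, with no replicate check. Depth came to 215454437 CpG reads in HOM, 282430649 in HET and 200824258 in WT, a mean per CpG of 9.85 reads in HOM, 12.9 in HET and 9.18 in WT. In the open sea, the CpGs more than 4000 bp from any island, the level was 78.2% in HOM, 81.0% in HET and 81.7% in WT. A region was called when it differed by at least 10 percentage points and Fisher's exact test on its reads, Benjamini-Hochberg adjusted over all regions of its class, gave a value under 0.05. The test compares libraries, not genotypes. Reads given for a region are summed over its CpGs, so 1 sequenced read that covers several CpGs counts several times. In a bulk library a change within cells and a change in the mix of cells cannot be told apart. At annotated starts, the median level of B cell marker genes was 26.8% in HOM, 24.3% in HET and 19.9% in WT (5 of 8 genes measured), with 4 of the 5 genes lower in HOM than in WT, 4 of 5 lower in HET, and Cd22 higher in both. The median of T cell marker genes was 55.5% in HOM, 72.0% in HET and 58.1% in WT (7 of 8). The T cell genes ranged over 53.6 to 63.7% in HOM, 44.3 to 80.1% in HET and 40.2 to 64.7% in WT. The medians of myeloid genes were 41.5% in HOM, 39.1% in HET and 36.5% in WT (5 of 8), those of NK cell genes 42.3% in HOM, 44.6% in HET and 49.3% in WT (5 of 6), and those of erythroid genes 70.3% in HOM, 60.2% in HET and 68.4% in WT (3 of 6). At the CpG-richer gene ends, the median of the 8 B cell genes was 31.7% in HOM, 25.4% in HET and 40.8% in WT. Of these 8, 2 were called lower in HOM than in WT (3.67% of all gene ends were) and 3 in HET (1.29%). Of the 8 T cell genes, 2 were called higher (1.05% of all gene ends were) and 1 lower in HOM than in WT, and 4 were higher in HET (1.46%). Against WT, 1 of the 8 myeloid gene ends was called higher in HOM, and in HET 2 were higher and 1 lower. Of 6 NK cell genes 1 was called lower in HET, and of 6 erythroid genes 1 was called lower in HOM. Among low-methylated runs, defined below, those of B cell genes numbered 52. Against WT, 8 were called lower in HOM and 1 higher (2.02% and 3.25% over all runs), and 15 were called lower in HET and 1 higher (2.37% and 1.84%). In HOM, 3 of 33 runs of T cell genes and 2 of 14 of myeloid genes were called higher than in WT, and 0 lower. Of 6 runs of NK cell genes and 20 of erythroid genes, 0 were called in HOM against WT. In HET, 1 of the 14 myeloid runs was called higher than in WT. The part of such differences between the libraries in the results below was not tested.

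The promoters of these genes differ in how many CpGs they offer to methylation, and 5 of them are shown because the results below turn on them. The sequences are RefSeq's for GRCm38.p6, which held 9 of the 10 genes, Egr1 not among them. Each runs 5′ to 3′ on the gene's strand over the 250 bases before the annotated start, with CpGs in capitals. The Fos promoter lies at chr12:85473640-85473889, plus strand. The Junb promoter lies at chr8:84978749-84978998, minus strand, and that of Jund on the same chromosome at chr8:70697489-70697738, plus strand. Batf has its promoter at chr12:85686470-85686719, plus strand, and Nr4a1 at chr15:101266596-101266845, plus strand.
Fos: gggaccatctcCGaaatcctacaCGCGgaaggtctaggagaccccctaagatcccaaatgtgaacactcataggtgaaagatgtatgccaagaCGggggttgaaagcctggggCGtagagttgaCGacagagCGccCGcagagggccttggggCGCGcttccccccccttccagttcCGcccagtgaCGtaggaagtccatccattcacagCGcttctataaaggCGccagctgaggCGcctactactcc
Junb: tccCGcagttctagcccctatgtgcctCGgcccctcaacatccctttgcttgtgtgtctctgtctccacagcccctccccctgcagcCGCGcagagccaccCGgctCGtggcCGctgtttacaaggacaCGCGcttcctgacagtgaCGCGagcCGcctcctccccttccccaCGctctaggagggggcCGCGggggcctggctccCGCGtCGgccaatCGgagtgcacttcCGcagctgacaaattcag
Jund: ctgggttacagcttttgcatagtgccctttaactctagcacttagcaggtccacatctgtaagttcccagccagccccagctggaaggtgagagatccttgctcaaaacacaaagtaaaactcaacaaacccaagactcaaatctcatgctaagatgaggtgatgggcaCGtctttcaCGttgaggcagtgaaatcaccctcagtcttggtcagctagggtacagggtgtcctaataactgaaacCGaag
Batf: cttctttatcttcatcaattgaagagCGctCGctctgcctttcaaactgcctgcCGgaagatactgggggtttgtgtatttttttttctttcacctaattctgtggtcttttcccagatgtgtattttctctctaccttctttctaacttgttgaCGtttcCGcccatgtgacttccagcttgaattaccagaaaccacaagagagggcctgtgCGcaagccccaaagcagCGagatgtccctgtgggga
Nr4a1: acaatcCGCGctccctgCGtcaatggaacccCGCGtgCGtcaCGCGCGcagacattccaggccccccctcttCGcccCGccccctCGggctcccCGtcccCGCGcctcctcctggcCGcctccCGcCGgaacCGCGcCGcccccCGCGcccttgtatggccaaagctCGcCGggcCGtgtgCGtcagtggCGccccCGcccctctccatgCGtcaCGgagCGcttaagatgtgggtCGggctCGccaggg

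These 250 bases held 34 CpGs in Nr4a1, 20 in Junb, 15 in Fos, 7 in Batf and 3 in Jund. In 8 of the 9 promoters the level stayed below 3% in every library. Fos, the founding partner of Jun in AP-1, had 0 methylated of 219 reads in HOM, 0 of 119 in HET and 0 of 89 in WT. Batf, which pairs with Jun proteins and acts with IRF4 in lymphocytes, read 0% in HOM, 2.08% in HET and 0% in WT. The Jund promoter was the exception, at 88.9% over 36 reads in HOM, 86.4% over 66 in HET and 70.2% over 47 in WT. Its 3 CpGs were thus highly methylated in all libraries.

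The letters TGACG form a CpG-containing arm of the motif that CREB and ATF proteins bind, and methylation of such a CpG can be read directly. Searched on both strands, TGACG occurred 10 times in 6 of these promoters (Junb 1, Fos 2, Fosb 1, Batf 1, Atf3 1, Nr4a1 4), and 17.9% of 27025 RefSeq promoters of the same length hold it. In the sequences above, the Fos sites begin at -129 and -66 bp from the start, and the Nr4a1 sites read CGTCA, the same letters on the other strand. Over all 10 CpGs there were 0 methylated of 98 reads in HOM, 0 of 126 in HET and 0 of 80 in WT. The AP-1 letters TGANTCA were in none of the 9 sequences and in 6.87% of all promoters. TATAAA was found in Fos alone among the 9, at -33 bp, and in 13.0% of all promoters. A match of letters is a description and not a bound site.

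Around the annotated start, from 1000 bp before to 500 bp after, 6 of the 9 genes stayed below 5% in every library. Jun, the main DNA-binding subunit of AP-1, read 0.612% over 1307 reads in HOM, 0.223% over 1347 in HET and 0.302% over 663 in WT. Atf3, a stress-induced family member that can repress transcription, read 0.922% in HOM, 0.899% in HET and 0.757% in WT. Fosl2, a Fos relative also called Fra-2, read 0.198% in HOM, 0.308% in HET and 0.555% in WT. Fosb, another Fos relative, stood slightly higher at 3.84% in HOM, 4.50% in HET and 2.99% in WT. Batf and Nr4a1, an orphan nuclear receptor also called Nur77, had intermediate windows: Batf read 16.8% in HOM, 15.05% in HET and 17.6% in WT, and Nr4a1 read 13.1% in HOM, 17.1% in HET and 13.6% in WT.

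**Figure D1:**
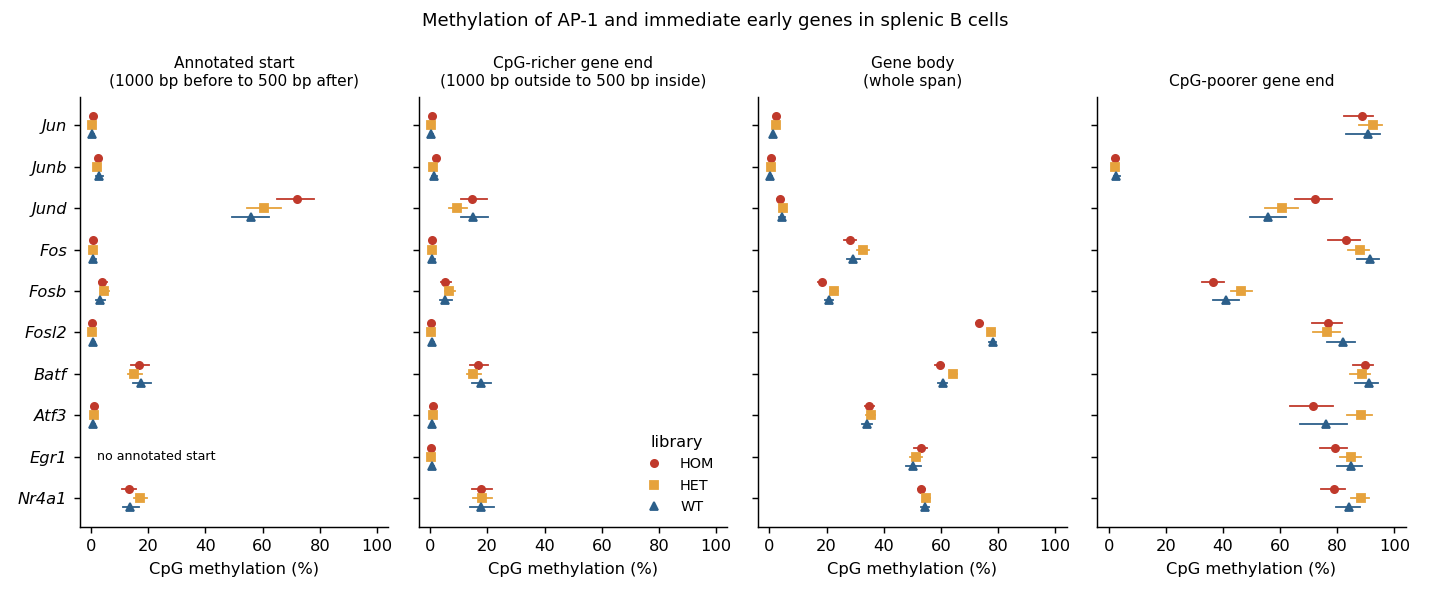
CpG methylation in percent (x axis) of each of the 10 genes (rows) in HOM, HET and WT, over the annotated start, the CpG-richer end, the gene body and the CpG-poorer end. Lines are 95% Wilson intervals of counting error. Starts lie near 0 except in Jund, Batf and Nr4a1, and bodies run over the whole scale, up to 73.5% in HOM, 77.7% in HET and 78.1% in WT at Fosl2.

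Of the 9 annotated start windows 1 was called in HOM against WT, that of Jund, which encodes a Jun protein made in most resting cells. It was higher in HOM than in WT, with 72.1% over 179 reads in HOM, 60.6% over 264 in HET and 55.9% over 227 in WT. The difference of HOM from WT was 16.1 points (95% interval 6.71 to 25.0; Fisher's exact test, Benjamini-Hochberg adjusted p = 0.0126), and 1.02% of all annotated start windows were called higher in this comparison. HET differed from WT by 4.66 points (-4.05 to 13.3; Fisher's exact test, adjusted p = 0.643). Over the 15 of its 25 CpGs with at least 5 reads in every library, the mean CpG level was 77.3% in HOM, 68.7% in HET and 66.2% in WT. The window lies outside the gene's main island: a short unmethylated island ends inside it, and the island of Jund begins 940 bp after the annotated start and reads 0.314% in HOM, 0.741% in HET and 0.849% in WT over 224 CpGs. None of the 9 was called in HET against WT or in HOM against HET by Fisher's exact test, where 2.6% and 3.17% of all windows were, and 0 and 2 had an unadjusted p under 0.05. These start windows were added after the data had been seen, because the CpG-richer end of a gene need not be its start.

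At the CpG-richer ends, from 1000 bp outside to 500 bp inside, 0 of 10 windows were called in any comparison, by Fisher's exact test, and 0 had an unadjusted p under 0.05. Over all gene ends, 4.72% were called in HOM against WT, 2.75% in HET against WT and 3.85% in HOM against HET. The median level of the 10 windows was 1.39% in HOM, 0.928% in HET and 1.01% in WT, and their differences ran from -0.731 to 0.596 points between HOM and WT. Egr1, a zinc finger factor induced by antigen receptor signals, read 0.101% over 988 reads in HOM, 0.275% over 1091 in HET and 0.512% over 781 in WT. In Junb and Jund the CpG-richer end is the 3′ end, which lies within the island. In Nr4a1 it lies far upstream of the annotated start, at a separate island that read 2.43% in HOM, 0.240% in HET and 3.29% in WT. The Nr4a1 end window as a whole read 17.8% in HOM, 18.0% in HET and 17.7% in WT.

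The 10 loci held 18 CpG islands, and 17 of them were below 7% in every library. The islands richest in CpGs were those of Jun, with 264 CpGs at 0.544% in HOM, 0.381% in HET and 0.272% in WT, of Jund, given above, and of Junb, with 215 CpGs at 0.468% in HOM, 0.454% in HET and 0.513% in WT. The island that was partly methylated lies inside Batf, 11459 bp after its start, with 27.6% over 152 reads in HOM, 31.6% over 152 in HET and 19.6% over 112 in WT. HOM differed from WT there by 7.99 points (95% interval -2.56 to 17.9), an interval that includes 0, and HET differed from WT by 11.9 points (1.16 to 21.9), an interval that does not. These islands were measured without a test.

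**Figure D2:**
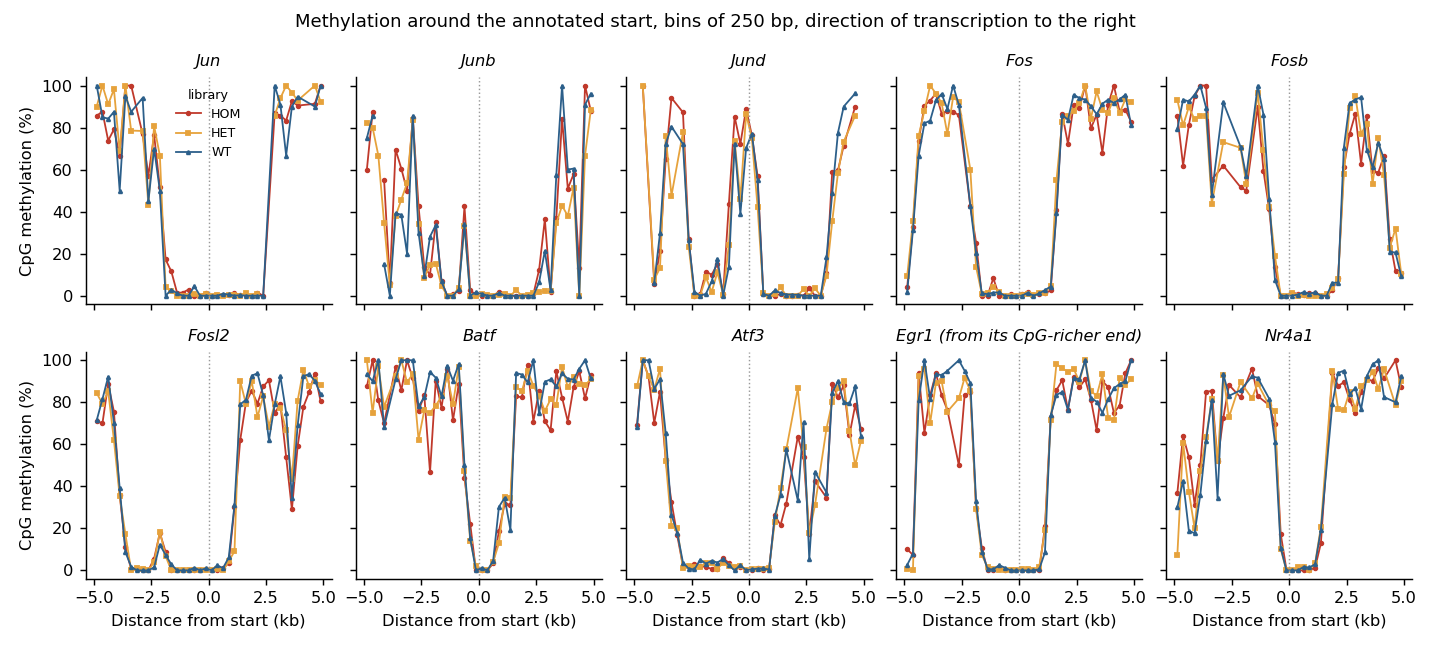
CpG methylation in percent (y axis) in bins of 250 bp by distance in kb from the annotated start (x axis), with one panel per gene and lines for HOM, HET and WT, and Egr1 drawn from its CpG-richer end. The trough around the start is near 0 in all libraries in 9 genes, and in Jund the start sits on a methylated peak between 2 troughs.

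Gene bodies spanned the whole scale. Junb, an AP-1 subunit abundant in activated lymphocytes, read 0.526% in HOM, 0.501% in HET and 0.313% in WT, while Fosl2, with a span of 21369 bp, read 73.5% in HOM, 77.7% in HET and 78.1% in WT. None of the 10 bodies was called in any comparison by Fisher's exact test, and 4.21% of all bodies were called in HOM against WT, 1.71% in HET against WT and 3.05% in HOM against HET. Before the size limit of 10 points, 3, 2 and 4 of the 10 had an adjusted p under 0.05 in these comparisons. The largest such difference of HOM from WT was Fosl2, by -4.67 points (95% interval -6.47 to -2.86; Fisher's exact test, Benjamini-Hochberg adjusted p = 1.749e-06). The median body of all genes differed by -3.28 points between HOM and WT, a value inside the interval of Fosl2. Jun differed by 1.22 points, with 2.37% in HOM, 2.46% in HET and 1.14% in WT. Over the 164 of its 191 CpGs with at least 5 reads in every library, the mean CpG level was 1.45% in HOM, 1.51% in HET and 1.42% in WT.

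Against HET, the HOM bodies of Fos, Fosb, Fosl2 and Batf were 4.25 to 4.77 points lower, below the size called. Fos read 28.0% in HOM and 32.6% in HET, and Batf read 59.6% in HOM and 64.4% in HET. The median over all bodies was -2.90 points in this comparison. Atf3 differed from HET by -0.450 points in HOM, with 34.9% in HOM, 35.4% in HET and 34.1% in WT, and Egr1 read 52.9% in HOM, 51.2% in HET and 50.4% in WT.

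The flanks were measured without a test. Upstream of Jun the 5000 bp read 18.0% over 1025 reads in HOM, 22.0% over 1248 in HET and 31.2% over 631 in WT, a difference of HOM from WT of -13.3 points (95% interval -17.6 to -8.99). Over the 35 of its 120 CpGs with at least 5 reads in every library, the mean CpG level was 34.98% in HOM, 36.8% in HET and 33.8% in WT. HOM was thus lower than WT by the summed reads and slightly higher by this mean, which both leaves out CpGs of low coverage and weights CpGs equally. Upstream of Fosb the flank read 36.6% in HOM, 43.8% in HET and 49.7% in WT, and over 60 such CpGs the mean was 39.2% in HOM, 42.0% in HET and 44.2% in WT. Downstream of Fos it read 77.0% in HOM, 83.3% in HET and 84.3% in WT.

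Outside an island, the first 500 bp form its outer border, and 21 of the 22 borders near the 10 genes had enough reads to test. Jun's border on the 3′ side held 1 CpG and was not tested. In HOM against WT, 0 of 21 were called by Fisher's exact test, 0 had an unadjusted p under 0.05, and 1.48% of all borders were called. The differences ran from -11.8 to 7.68 points. The borders themselves ranged widely: the upstream border of Fos read 0% over 126 reads in HOM, 1.46% over 137 in HET and 1.16% over 86 in WT, and the upstream border of the Nr4a1 start island read 78.8% over 99 reads in HOM, 75.7% over 148 in HET and 78.4% over 74 in WT. At Egr1 the border inside the gene read 64.2% in HOM, 68.4% in HET and 64.6% in WT.

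The border beyond the 3′ end of Junb (chr8:84975672-84976171, 738 bp from the gene and overlapping no gene of the annotation) set HET apart. It read 26.0% over 169 reads in HOM, 3.33% over 150 in HET and 18.4% over 158 in WT. HET was lower than WT (HET minus WT -15.02 points, 95% interval -22.05 to -8.27; Fisher's exact test, Benjamini-Hochberg adjusted p = 0.00701), and 0.433% of all borders were called lower. HOM was higher than HET by 22.7 points (15.3 to 30.1; Fisher's exact test, adjusted p = 1.928e-05), and 0.292% of all borders were called higher. HOM and WT did not differ beyond counting error (7.68 points, -1.38 to 16.5). Coverage was uneven across its 12 CpGs: a pair of CpGs at 0 to 4% had 25 and 24 reads in HET and 0 in WT, and a CpG at 83.3% in HOM and WT had 0 reads in HET. With only CpGs of at least 5 reads in every library, HET minus WT was -9.05 points and was no longer called (Fisher's exact test, adjusted p = 0.459), and HOM minus HET was 22.0 points and stayed called. With a border of 200 bp or with counts divided among linked CpGs, neither comparison gave a call.

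**Figure D3:**
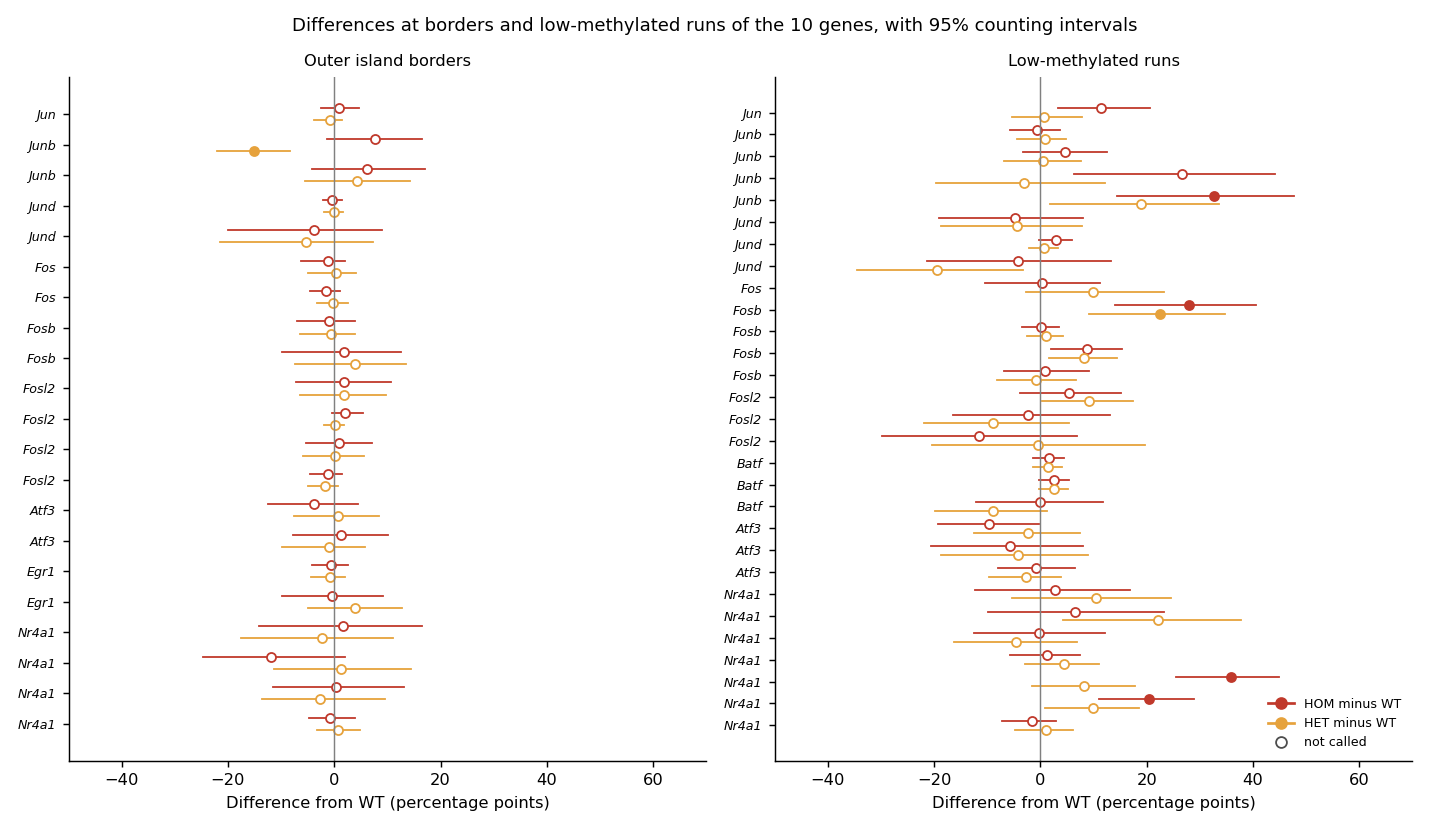
Difference from WT in percentage points (x axis) for the 21 outer borders and 29 low-methylated runs of the 10 genes (rows, in genome order within a gene), for HOM minus WT and HET minus WT, with 95% Newcombe intervals. Filled circles were called. They are 1 border of Junb in HET and, among the runs, 4 in HOM and 1 in HET, all runs on the higher side.

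Away from islands and borders, low-methylated runs were stretches of 100 bp or more with 4 or more CpGs, a kind of region that often marks enhancers. Their running level over 3 CpGs had to lie below 50% in the mean of HOM, HET and WT. The runs were thus defined on the same libraries that were then compared, and a single library can read above 50%. The 10 loci held 29 runs, and all could be tested. In HOM 4 of the 29 were higher than in WT and 0 lower, a share of 13.8% against 3.25% called higher and 2.02% called lower over all 68831 runs. They lie at 3 genes, Nr4a1, Junb and Fosb. In HET 1 was higher than in WT (1.84% over all runs) and 0 lower (2.37%), and against HET 2 were higher in HOM (3.3%) and 0 lower (1.87%). The median difference of the 29 was 1.27 points between HOM and WT and 0.875 points between HET and WT, beside 0.169 and 0.137 points over all runs. The other 25 runs differed by -11.6 to 26.7 points between HOM and WT without a call. Since the genes were chosen with earlier results of these data known, these shares are a description.

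Nr4a1 carried a pair of neighbouring runs that were more methylated in HOM, inside the annotated gene span and upstream of the annotated start. The first (chr15:101261396-101261856, centred at -5220 bp from that start, 8 CpGs) read 63.3% over 177 reads in HOM, 35.7% over 171 in HET and 27.5% over 171 in WT. HOM exceeded WT by 35.8 points (95% interval 25.6 to 44.9; Fisher's exact test, Benjamini-Hochberg adjusted p = 9.878e-09) and HET by 27.6 points (17.2 to 37.2; Fisher's exact test, adjusted p = 4.128e-05). HET minus WT was 8.19 points (-1.66 to 17.8; Fisher's exact test, adjusted p = 0.481). All 8 CpGs were higher in HOM than in WT and than in HET. They covered 36.8 to 80.8% in HOM, 7.41 to 60% in HET and 10.5 to 38.9% in WT, so the single CpGs overlapped between libraries. HET was higher than WT at 7 of the 8 CpGs and lower at 1.

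The second Nr4a1 run (chr15:101262238-101263074, centred at -4190 bp, 12 CpGs) begins 381 bp after the first ends. It read 43.2% over 227 reads in HOM, 32.7% over 220 in HET and 22.8% over 171 in WT. HOM exceeded WT by 20.4 points (11.1 to 29.0; Fisher's exact test, Benjamini-Hochberg adjusted p = 0.00174), and 11 of 12 CpGs were higher in HOM. HOM minus HET was 10.4 points (1.44 to 19.2) with an adjusted p of 0.185 by Fisher's exact test, and 8 of 12 CpGs were higher in HOM than in HET. HET thus lay between HOM and WT in both runs, without a call against WT. With counts divided by the number of CpGs within 150 bp, so that CpGs on 1 read count about once, the first run stayed called against WT (35.4 points, adjusted p = 0.0306) and not against HET (adjusted p = 0.323), and the second was no longer called against WT (20.01 points, adjusted p = 0.810, all by Fisher's exact test). The other 5 Nr4a1 runs were not called, and the one just after the start island read 4.21% in HOM, 6.94% in HET and 5.84% in WT.

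**Figure D4:**
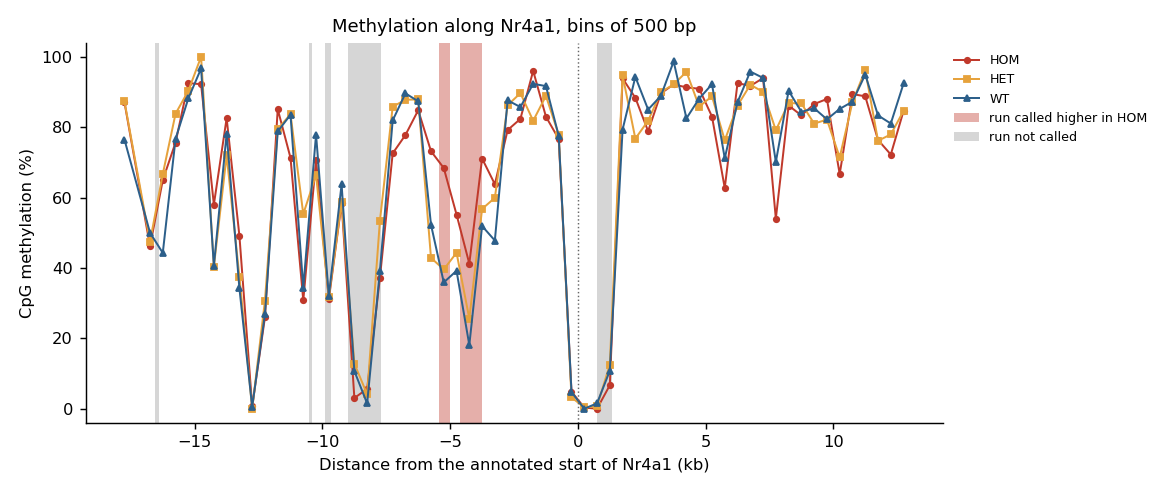
CpG methylation in percent (y axis) in bins of 500 bp along Nr4a1 by distance in kb from its annotated start (x axis), for HOM, HET and WT, with the low-methylated runs shaded. In the pair of runs shaded red the HOM line lies above HET and WT, and at the start island the lines run close together near 0.

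Nr4a1 lies 2.42 Mb from the mutated position of Kmt2d on chromosome 15, and is the only one of the 10 genes on that chromosome. An effect of the genotype and one of the chromosome segment that is inherited with the mutation cannot be told apart here. Within 5 Mb of the mutated position, 4.71% of 658 runs were called higher in HOM than in WT and 2.43% lower. On the rest of chromosome 15, 3.69% of 2276 runs were higher and 1.41% lower. On the other autosomes, 3.22% of 65897 were higher and 2.03% lower. When the runs were instead defined from the HET library alone, which takes no part in this comparison, the matching Nr4a1 run differed by 27.4 points (Fisher's exact test, adjusted p = 2.283e-08).

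Upstream of Junb, a neighbouring pair of runs were also higher in HOM, each in 1 comparison. The farther one (chr8:84982426-84983017, 3678 bp from the gene, 5 CpGs) read 48.2% over 56 reads in HOM, 34.4% over 61 in HET and 15.6% over 45 in WT. HOM exceeded WT by 32.7 points (14.4 to 47.6; Fisher's exact test, Benjamini-Hochberg adjusted p = 0.0176), and the 4 CpGs covered in both libraries were all higher in HOM. The nearer one (chr8:84982153-84982408, 3405 bp from the gene, 6 CpGs) read 55.6% over 45 reads in HOM, 25.9% over 85 in HET and 28.9% over 45 in WT. HOM exceeded HET by 29.7 points (12.04 to 45.4; Fisher's exact test, adjusted p = 0.0255) with all 6 CpGs higher. Its difference from WT was of like size, 26.7 points (6.26 to 44.2), at an adjusted p of 0.157 by Fisher's exact test. These runs rest on fewer reads than those of Nr4a1, and with divided counts neither was called (Fisher's exact test, adjusted p = 0.204 for HOM against WT in the farther run and 1 for HOM against HET in the nearer), while the differences were 32.7 and 28.3 points.

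The run near Fosb (chr7:19299395-19299875, 4 CpGs) lies 2821 bp beyond the 3′ end, inside the annotated gene Gm26802. It read 39.2% over 74 reads in HOM, 33.8% over 80 in HET and 11.3% over 71 in WT. HOM exceeded WT by 27.9 points (13.9 to 40.6; Fisher's exact test, Benjamini-Hochberg adjusted p = 0.00520) and HET exceeded WT by 22.5 points (9.17 to 34.7; Fisher's exact test, adjusted p = 0.0294). HOM and HET did not differ beyond counting error (5.44 points, -9.57 to 20.2). Most reads lay on a neighbouring pair of CpGs that 1 read can cover together, at 53.6 and 51.9% in HOM, 35.9 and 34.3% in HET and 20 and 15.8% in WT. The other pair of CpGs read 0% in HOM, and coverage was uneven there: a CpG at 4.76% over 21 reads in WT had 13 reads in HOM and 0 in HET. Dividing counts among linked CpGs left differences of 26.7 points for HOM and 23.9 points for HET from WT, neither of them called (Fisher's exact test, adjusted p = 0.930 and 1). With runs defined on WT, an alternative chosen after seeing the data, HET minus WT was 18.4 points and not called (Fisher's exact test, adjusted p = 0.0725).

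**Figure D5:**
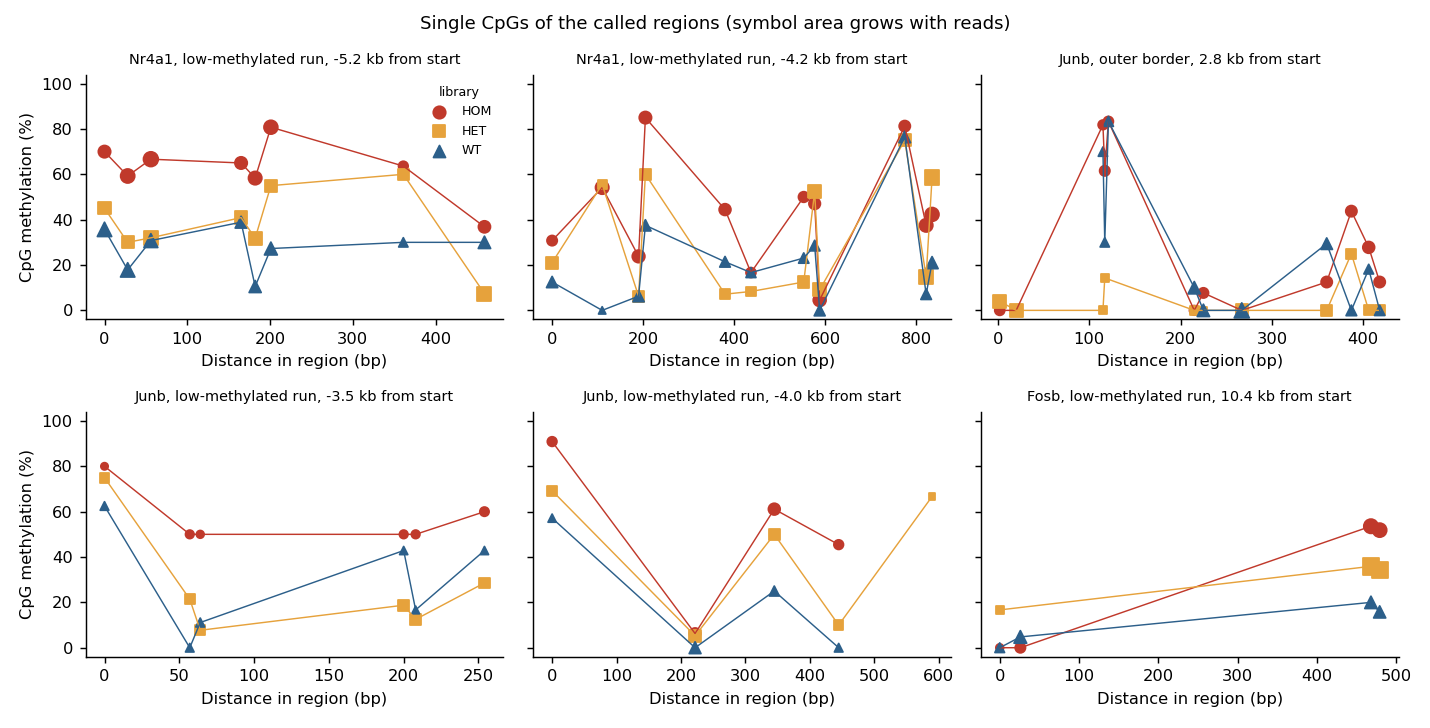
Methylation in percent (y axis) of each CpG in the 6 called regions by distance in bp from the region's first base (x axis), for HOM, HET and WT. Symbol area grows with the reads, and a CpG without reads in a library is not drawn. In the first Nr4a1 run all 8 HOM points lie above the WT point at the same position, and in the Fosb run the libraries separate at the last 2 CpGs.

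No run of Jund, Fos, Fosl2, Batf or Atf3 was called, nor the run of Jun, and Egr1 had none. The run of Jun upstream of its island read 13.6% over 81 reads in HOM, 2.86% over 70 in HET and 2.25% over 89 in WT (HOM minus WT 11.3 points; Fisher's exact test, adjusted p = 0.0907). In Batf the start lies within a run of 46 CpGs that read 9.79% in HOM, 9.67% in HET and 8.27% in WT, and a second run of 38 CpGs near the 3′ end read 7.78% in HOM, 7.80% in HET and 5.32% in WT. Both stayed low in every library. In Atf3 a run inside the gene read 8.57% over 105 reads in HOM, 15.9% over 126 in HET and 18.2% over 99 in WT (HOM minus WT -9.61 points; Fisher's exact test, adjusted p = 0.310).

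The related genes of the pathway were measured in the same way. Of 15 other AP-1 and basic leucine zipper genes and 22 other immediate early genes, 0 gene ends were called in any comparison by Fisher's exact test, with median differences between HOM and WT of -0.138 and 0.0897 points, beside -0.780 points over all gene ends. Of 16 upstream kinases and serum response factors, 13 gene ends lay lower in HOM than in WT, with a median difference of -1.66 points. Over all gene ends 64.7% lay lower in HOM. Of the 16, 1 was called lower in both mutants, beside 3.67% of all gene ends in HOM and 1.29% in HET. It was that of Mapk3, the ERK1 kinase, which read 27.0% over 370 reads in HOM, 29.2% over 342 in HET and 44.7% over 237 in WT (Fisher's exact test, Benjamini-Hochberg adjusted p = 4.046e-04 for HOM and 0.00436 for HET against WT). Among bodies, Atf5 was higher in HOM than in HET, at 40.1% in HOM, 26.0% in HET and 34.1% in WT (Fisher's exact test, adjusted p = 3.669e-11), 1 of 15 in its list beside 0.297% of all bodies, and its span overlaps other genes.

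At outer borders, 0 of 34 of the other AP-1 genes were called in any comparison by Fisher's exact test. Of 52 borders of the other immediate early genes, 1 was higher in HOM than in WT, beside 0.297% of all borders, near Ier5 (48.9% over 88 reads in HOM, 44.8% over 116 in HET and 21.8% over 87 in WT; Fisher's exact test, Benjamini-Hochberg adjusted p = 0.0233). A border of Nr4a2, a relative of Nr4a1, was lower in HOM than in HET, as were 1.13% of all borders (8.41% in HOM, 18.5% in HET and 17.1% in WT; Fisher's exact test, adjusted p = 0.00999). Of 28 borders of kinases and serum response factors, 1 was lower in HOM than in WT, beside 1.18% of all borders, near Mapk8, the JNK1 kinase (26.0% over 154 reads in HOM, 38.5% over 109 in HET and 48.9% over 92 in WT; Fisher's exact test, adjusted p = 0.0269). Among low-methylated runs, 4 of 64 in the other AP-1 genes, 1 of 51 in the other immediate early genes and 3 of 54 in the kinases and serum response factors were called higher in HOM than in WT, and 0 in each list lower, beside 3.25% higher and 2.02% lower over all runs. In HET, 0, 2 and 1 were called higher and 2, 0 and 2 lower than in WT in these lists, beside 1.84% and 2.37% over all runs.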

How the data were processed

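Per the labels' protocols, 200 ng of DNA, sheared to 800 bp, was bisulfite converted and sequenced with paired 150 bp reads. Per the file headers, the deposited table holds a count of methylated and of covering reads for each of 21875444 CpGs, not normalized, in 1 pair of columns per genotype. The sources used here do not say whether a column is 1 of the 2 samples of its genotype or pools them, and blood samples were not analysed here. Per the submitters' processing notes the build is mm10 and the tools are MethylDackel, BWA 0.7.13 and Picard 2.3.0 for some samples and Bismark, Bowtie2, Trim Galore 0.2.8 and Picard 1.91 for others, and the set behind each column is not given.

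Levels are methylated over covering reads summed per region (Python 3.11.15, scipy 1.17.1). Gene spans came from RefSeq's GRCm38.p6 table, and exons and UTRs were not assigned. Islands were found from CpG positions alone, and borders were used where the island's core was below 20%. Regions needed 3 CpGs and 30 reads in every library. Tests were two-sided Fisher's exact tests, Benjamini-Hochberg adjusted over all autosomal regions of a class. Wilson and Newcombe intervals cover counting error alone and take linked CpGs as independent. The scripts were tested on simulated data. All 10 genes are named whatever their result, and of the other lists up to 4 called genes per list and comparison. Members and lists were chosen with earlier results of these data known. The alternatives tried changed the read minimum, the window or border width, the definition of a run, the size called, the linking of CpGs and the overall level of the libraries.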

Additional observations from a re-analysis of the deposited data

How the results depend on the processing

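With 1 library per genotype no library could be left out, and depth of about 10 reads per CpG limits single CpGs. No paired analysis was possible because the table holds 1 pair of columns per genotype with no replicate number. Calls for the 10 genes' bodies stayed at 0 in every comparison and setting, and those for their CpG-richer ends too, except that 1 window (Jund) was called in HOM against WT at the annotated start, an alternative chosen after seeing the data. Of the runs called higher in HOM than in WT (4), 2 remained testable and called at 100 reads. With counts divided by the CpGs within 75 bp on each side 1 was called, and with runs below 30% 0 were. Of those called in HOM against HET (2), 1, 0 and 0 were called in these settings. The run called in HET against WT (1), near Fosb, had no call in any of them or with runs defined on the library not compared (0 in each). It had fewer than 100 reads in every library, so it was not tested at 100 reads. In HET against WT, 12 of the 29 runs were tested at 100 reads. With runs below 30% 17 were tested, and with runs defined on the library not compared 25. A call absent in these settings can thus be a region dropped and not retested. The border called in HET against WT (1) was lost with CpGs of at least 5 reads, at 200 bp, with divided counts and at 20 points (0 in each). In HOM against HET (1) there were 2 at 1000 bp, 0 at 200 bp and 0 with divided counts. The first Nr4a1 run kept its call in HOM against WT with divided counts (35.4 points, Fisher's exact test, adjusted p = 0.0306), and over the other settings that kept the run its adjusted p was at most 2.283e-08. The Junb run that was not called against WT became called with runs defined on WT, which joined neighbouring runs (31.6 points, Fisher's exact test, adjusted p = 2.871e-04), and HET against WT at Nr4a1 likewise (10.2 points, adjusted p = 0.0416). This setting was chosen after seeing the data. It picks stretches low in WT, which is itself compared, so its calls add no support. Over all runs it gave 4692 calls beside 3628 in HOM against WT, and 3693 beside 2896 in HET against WT. Divided counts left few calls over all regions: in HOM against WT 102 runs beside 3628, 3 gene ends beside 910, 417 bodies beside 822 and 0 borders beside 294. Borders of 200 and 1000 bp gave 7 and 1474 calls in that comparison, runs below 30% gave 1035, and scaling to equal open sea gave 441 bodies. The causes were not tested.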

Other observations

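Against WT, 4 of 64 low-methylated runs in the other AP-1 genes were called higher in HOM, the direction of the called Nr4a1 and Junb runs. So were 1 of 51 in the other immediate early genes and 3 of 54 in the kinases and serum response factors. Over all runs 3.25% were called higher, and 0 in each list were called lower, beside 2.02%. Bach2, a repressor that competes with AP-1 in B cells, held a run of 8 CpGs at 45.1% over 113 reads in HOM, 26.8% over 164 in HET and 19.2% over 156 in WT (Fisher's exact test, Benjamini-Hochberg adjusted p = 5.472e-04 for HOM against WT), and another of 9 CpGs at 44.3% in HOM, 38.2% in HET and 20.3% in WT (Fisher's exact test, adjusted p = 0.0443). Maff, a small Maf protein, held a run at 45.3% in HOM, 28.7% in HET and 23.3% in WT (Fisher's exact test, adjusted p = 0.0284). Jdp2, a repressor that pairs with Jun, held one at 21.3% in HOM, 12.9% in HET and 10.1% in WT (Fisher's exact test, adjusted p = 0.0305).

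Among the kinases and serum response factors, Map3k1 held a pair of runs called higher in HOM than in WT, one of them at 31.9% over 160 reads in HOM, 16.99% over 206 in HET and 16.0% over 131 in WT, and Elk3 one at 33.5% in HOM, 28.6% in HET and 21.7% in WT (Fisher's exact test, adjusted p = 0.0446 and 0.0443 for HOM against WT). A run near Btg2, an antiproliferative immediate early gene, was higher in both mutants, at 36.4% over 143 reads in HOM, 34.0% over 209 in HET and 17.7% over 147 in WT (Fisher's exact test, adjusted p = 0.0114 for HOM and 0.0222 for HET against WT). A run of Ier5 was higher in HET (24.2%) than in WT (10.6%), and one of Mapk14, the p38 alpha kinase, likewise (27.4% in HET and 10.3% in WT; Fisher's exact test, adjusted p = 0.0376 and 0.0487). Called higher in HET were 0 of 64 runs in the other AP-1 genes, 2 of 51 in the other immediate early genes and 1 of 54 in the kinases and serum response factors. Over all runs 1.84% were. In the other direction, 2.37% of all runs were called lower in HET than in WT. In these lists 4 runs were, 2 of 64 in the other AP-1 genes and 2 of 54 in the kinases and serum response factors. They lie at Mef2c (12.02% in HET and 25.7% in WT; Fisher's exact test, adjusted p = 0.0431), at Mef2d (5.61% in HET and 16.6% in WT; adjusted p = 0.00552), at Bach2 in a run other than those above (9.03% in HET and 25.6% in WT; adjusted p = 0.0330), and near Jdp2 in another run (12.4% in HET and 29.4% in WT; adjusted p = 0.0491, all by Fisher's exact test). Whether these differences hold in other animals was not tested.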
